A study of Mus musculus with 2 samples.

Results

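The genes described here were 8 components of the Notch pathway: the ligands Jag1, Jag2, Dll1 and Dll4, the receptors Notch1 and Notch2, the DNA-binding mediator Rbpj and the target gene Hes1. They were chosen by name, though with earlier results of these data known, and all 8 were among the 18049 genes listed in both expression tables. The data were CITE-seq, in which the transcripts and the surface proteins of single cells are counted together, the proteins through 12 antibodies that carry DNA tags. Live MHCIIhi CD11c+ B220- cells, the gate that holds the migratory dendritic cells (DCs) of a skin-draining lymph node, were sorted from B6 mice that were either unimmunized (naive) or injected in both rear footpads with ovalbumin plus papain, a protease allergen, and analysed 1 day later. Each condition was 1 library. The papain library came from popliteal nodes. For the naive library the sources differ, the methods naming pooled skin-draining nodes and the sample labels popliteal nodes, so library, a possible difference in node site and immunization cannot be told apart. With 1 library per condition there was no replicate check and no test: a difference is given as a ratio with an exact 95% interval, and all intervals and limits cover counting error only.

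Notch signalling runs between touching cells. A ligand of the Jagged or Delta-like family on one cell binds a Notch receptor on its neighbour, proteases cut the receptor, and the freed intracellular domain enters the nucleus, where it binds Rbpj and turns on genes such as those of the Hes and Hey families. DCs take part on both sides: they carry ligands that CD4+ T cells read during priming, and Notch2 in the DC itself is needed for some tissue and splenic DC populations.

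The antibody classes were those given by the authors: Langerhans cells (LCs), cDC1s and cDC2s, the last split by CD301b protein into CD301blo, CD301bint and CD301bhi cells. The naive library held 440 LCs, 578 cDC1s, and 658, 659 and 707 cDC2s from low to high CD301b, and the papain library held 881, 235, 1470, 1827 and 2893 in the same order. Median depth per class ranged from 10768 to 15806 unique molecular identifiers (UMIs) a cell in the naive library and from 11351 to 18290 in the papain library, LCs being the class whose depth differed most (10768 against 18290). Levels are UMIs summed over the cells of a class per 1000000 UMIs of that class (CPM). Of the defining markers, Epcam and Cd207 were highest in LCs (102 and 45.7 CPM in naive LCs), Xcr1 in cDC1s (16.9 CPM naive, 9.44 papain) and Sirpa in cDC2s (52.4 to 113 CPM). Mgl2, the gene of CD301b, was at 56.1 CPM in naive CD301bhi cDC2s but at 1.21 CPM in papain CD301bhi cDC2s, so in the papain library the CD301b classes rest on the antibody and not on the transcript. Of all barcodes, 2 occurred in both libraries.

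Jag1 was detected in every class, and it was higher in the papain library in LCs and in all 3 cDC2 classes but lower in cDC1s. Jag1, the Jagged ligand at chr2:137081451-137116520 (RefSeq, GRCm38.p6, minus strand), stood at 82.2 CPM in naive LCs, 181 in naive cDC1s, 66.6 in naive CD301blo, 100.1 in naive CD301bint and 106 in naive CD301bhi cDC2s. In the papain library the same classes stood at 108, 145, 95.7, 153 and 174 CPM. Naive cDC1s and papain CD301bhi cDC2s thus held the highest levels, with overlapping intervals (173 to 190.2 and 170.2 to 178 CPM), and naive CD301blo cDC2s the lowest. The overlap depended on the cells used: 32.9% of naive cDC1s held a T or B cell UMI, and without them the level was 215 CPM. In papain CD301bhi cDC2s such cells were 11.3% and held 10.9% of the Jag1 UMIs. The log2 ratio of papain over naive was 0.40 in LCs (interval 0.25 to 0.55), 0.52 in CD301blo (0.39 to 0.66), 0.61 in CD301bint (0.51 to 0.71) and 0.72 in CD301bhi cDC2s (0.63 to 0.81). In cDC1s it was -0.33 (-0.48 to -0.17), on the other side of 0. The Jag1 intervals here and below treat UMIs as independent and are too narrow. Cells with 5 or more Jag1 UMIs held 74.9% of the Jag1 UMIs of naive and 60.9% of those of papain cDC1s.

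The share of cells with a Jag1 UMI was higher in the papain library in LCs and in the cDC2 classes. In LCs 36.1% of naive and 60.0% of papain cells held Jag1, and after every cell was thinned to 8392 UMIs, which left out 127 naive and 110 papain LCs with fewer, the shares were 29.7% and 44.7%. In CD301bhi cDC2s the shares were 48.9% and 72.1% as found, and 39.7% and 58.8% after thinning. In cDC1s they were 60.0% and 54.0% as found, with overlapping intervals (55.9 to 64.1% and 47.4 to 60.5%), and 48.6% and 45.0% after thinning. Droplets without an antibody class that the authors marked for T cell transcripts (237 naive, 241 papain) are given for comparison. Of these 7.59% and 4.98% held Jag1, at median depths of 7626 and 6980 UMIs. Among those deep enough to thin the shares were 10.8% and 6.90%. All 5 classes lay above the shares of these droplets in both libraries. The droplets are no measure of background, since their summed migratory DC markers stood at 1969 and 1442 CPM. In the naive ones 6 droplets with 5 or more UMIs held 77.9% of the Jag1 UMIs. Cells with 5 or more Jag1 UMIs held 74.9% of the Jag1 UMIs of naive cDC1s and 65.8% of those of papain CD301bhi cDC2s, and the highest single cell held 54 UMIs.

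**Figure D1:**
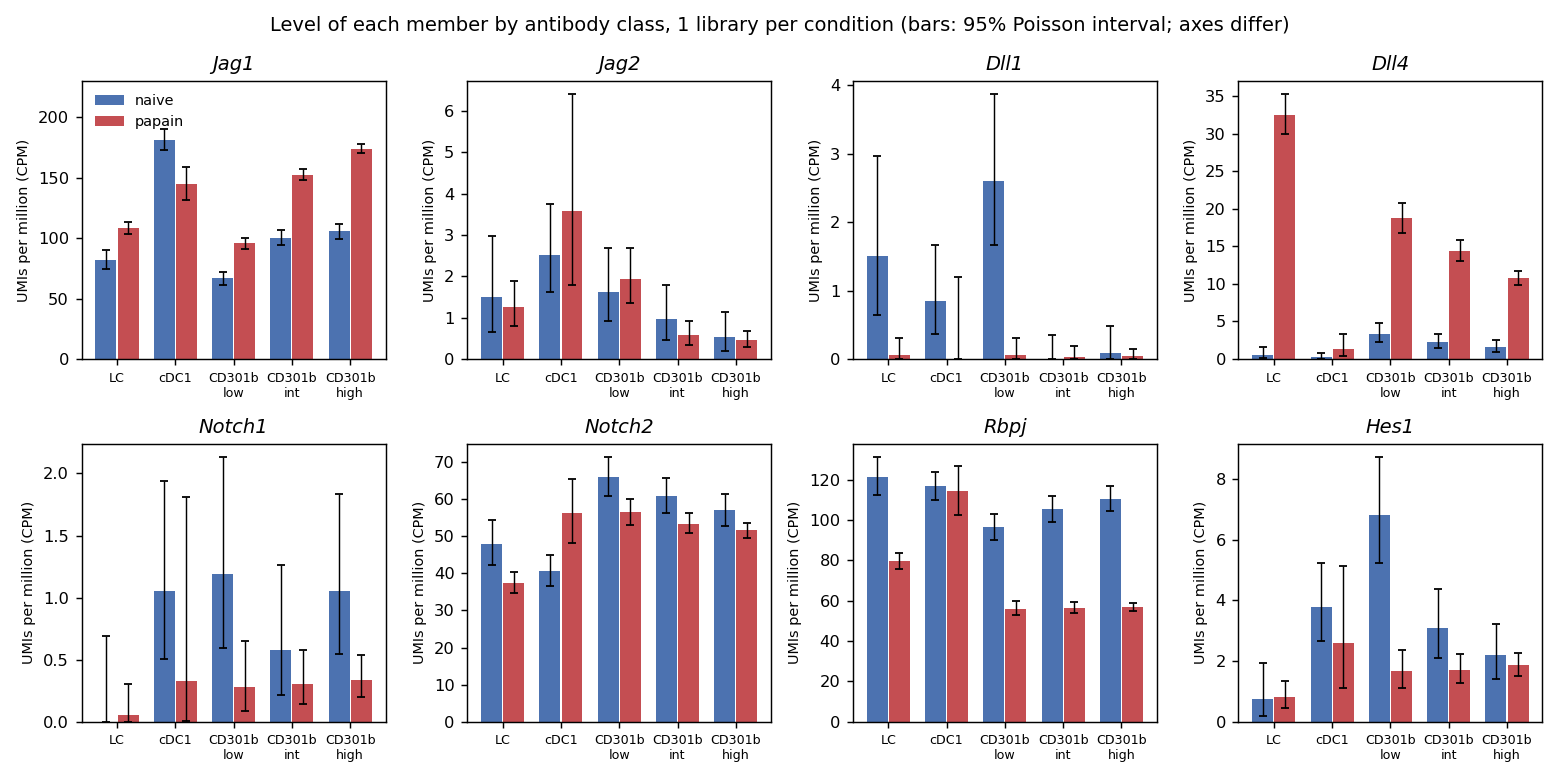
Level of the 8 genes in UMIs per 1000000 (vertical axes from 0, different scales) in the 5 antibody classes, naive in blue and papain in red, 1 library each; the lines are exact 95% Poisson intervals. Dll4 stood at 32.5 CPM in papain LCs and at 0.564 CPM in naive LCs, and Rbpj was lower in the papain library in LCs and cDC2s but not in cDC1s.

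Within a library, Jag1 separated the classes in different ways. Among naive cells it was 1.97-fold higher in cDC1s than in all cDC2s (181 against 92.2 CPM, log2 ratio 0.98, interval 0.89 to 1.06), whereas in papain cells the 2 levels were 145 and 153 CPM (log2 ratio -0.08, -0.22 to 0.06). CD301bhi cDC2s stood above CD301blo cDC2s in both libraries, 1.58-fold among naive (log2 ratio 0.66, 0.52 to 0.81) and 1.82-fold among papain cells (0.86, 0.79 to 0.94). Droplets that held a T or B cell UMI were 35.6% of CD301blo and 17.0% of CD301bhi naive cells, and without them the naive log2 ratio was 0.42, under 1.5-fold. The part of these droplets in the difference was not tested. LCs held less Jag1 than all cDC2s pooled, with a log2 ratio of -0.16 (-0.31 to -0.02) among naive cells and -0.50 (-0.57 to -0.43) among papain cells. They stood below CD301bint and CD301bhi but above CD301blo cDC2s in both libraries. Against CD301blo the levels were 82.2 and 66.6 CPM among naive and 108 and 95.7 CPM among papain cells.

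The Jag1 promoter is shown because Jag1 and Dll4 were the ligands that reached 10 CPM, and it spans 250 bases before to 50 after the start (chr2:137116471-137116770, minus strand, RefSeq, GRCm38.p6).
Jag1: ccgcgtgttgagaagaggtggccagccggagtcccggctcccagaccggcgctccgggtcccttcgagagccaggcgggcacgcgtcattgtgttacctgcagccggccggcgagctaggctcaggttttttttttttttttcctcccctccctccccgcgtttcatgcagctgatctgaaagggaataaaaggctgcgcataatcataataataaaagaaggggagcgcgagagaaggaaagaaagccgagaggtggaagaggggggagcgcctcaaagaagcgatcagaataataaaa
Neither the RBPJ core TGGGAA nor the NF-κB consensus, both searched on both strands, matched these letters.

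Of the 4 members that reached 10 CPM in a class, Dll4 had the largest ratio between the libraries in LCs and in all cDC2s. Dll4, a Delta-like ligand at chr2:119325784-119335666 (plus strand), gave 3 UMIs in 440 naive LCs and 597 UMIs in 881 papain LCs, or 0.564 and 32.5 CPM. The log2 ratio was 5.85 with an interval of 4.29 to 8.13. In the cDC2s the levels went from 3.36 to 18.7 CPM in CD301blo, from 2.23 to 14.4 CPM in CD301bint and from 1.66 to 10.8 CPM in CD301bhi cells. These were 5.57-, 6.47- and 6.48-fold higher in the papain library, with log2 intervals of 1.95 to 3.06, 2.09 to 3.37 and 2.04 to 3.44. The naive counts came from few cells, 2 LCs and 10, 6 and 4 cDC2s in the same order, and 89.5% of the 19 UMIs of naive CD301bhi cDC2s lay in 2 cells, so the intervals, which treat UMIs as independent, are too narrow. In cDC1s Dll4 stayed near the limit of counting, with 2 naive and 4 papain UMIs (log2 ratio 2.63, interval -0.18 to 6.09).

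Only a minority of the papain cells carried Dll4. It was found in 145 papain LCs (16.5%, interval 14.1 to 19.1), in 6.87% of CD301blo, 6.73% of CD301bint and 4.98% of CD301bhi cDC2s, against 0.455% of naive LCs and 0.566 to 1.52% of naive cDC2s. Thinned to 8392 UMIs a cell, the shares were 12.3% in papain LCs and 3.49 to 5.78% in papain cDC2s, against 0.439% in naive LCs. For comparison, 3 of 235 papain cDC1s (1.28%, median depth 12399 UMIs) and 0.830% of the papain droplets with T cell transcripts held Dll4, against a median depth of 18290 UMIs in papain LCs. The positive cells were not all at the limit of detection: 44 papain LCs held 5 or more Dll4 UMIs, and these cells carried 63.8% of the class's Dll4 UMIs. Of the 145 papain LCs with Dll4, 100 also held Jag1, and 45 did not.

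The same cells were read for transcripts of other cell types. In papain LCs 29.6% of Dll4 UMIs lay in the 22.5% of cells that held a T or B cell UMI, and without those cells the level was 31.0 CPM and the log2 ratio 6.79. Of the 3 Dll4 UMIs of naive LCs 2 lay in such cells, so that ratio rests on a naive level of 0.279 CPM. In a separate count, which can share cells with the first, 105 of the 597 Dll4 UMIs lay in 36 LCs with 2 or more UMIs of the macrophage genes C1qa and C1qb, and without them the level was 28.3 CPM and the log2 ratio 5.61. The summed level of the 5 macrophage and monocyte markers was 62.3 CPM in naive and 58.3 CPM in papain LCs, none of the 5 being at 0.

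**Figure D2:**
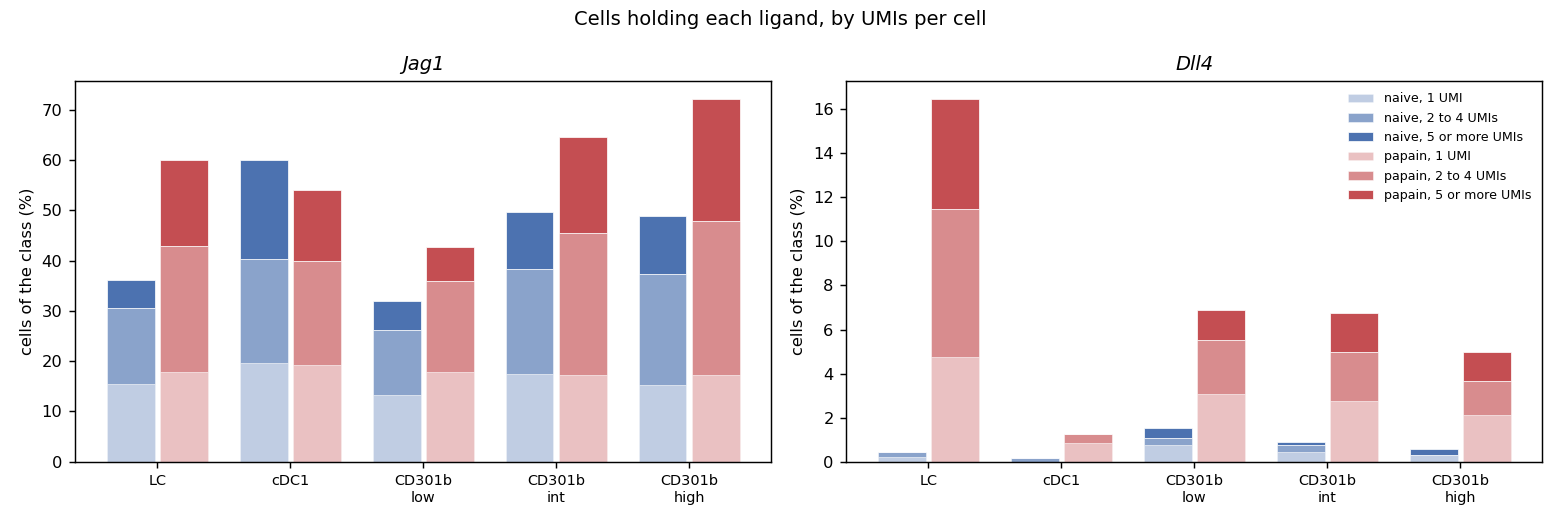
Percent of the cells of each class that held Jag1 (left) or Dll4 (right), divided by shade into cells with 1, 2 to 4, and 5 or more UMIs, naive in blue and papain in red (vertical axes differ). Dll4 was found in 16.5% of papain LCs and 0.455% of naive LCs, and Jag1 in 72.1% of papain and 48.9% of naive CD301bhi cDC2s.

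The order of Dll4 across the papain classes ran against that of Jag1 within the cDC2s. Dll4 was 2.44-fold higher in papain LCs than in papain cDC2s (32.5 against 13.3 CPM, log2 ratio 1.29, interval 1.15 to 1.43), and 1.74-fold lower in CD301bhi than in CD301blo cDC2s (10.8 against 18.7 CPM, -0.80, -1.0 to -0.60). It was 10.2-fold lower in papain cDC1s than in papain cDC2s on 4 UMIs (log2 ratio -3.36, -5.23 to -2.0). The intervals of adjacent levels did not overlap from LCs through CD301blo and CD301bint to CD301bhi cDC2s. These intervals too treat UMIs as independent and are too narrow, since 55.3 to 66.6% of the Dll4 UMIs lay in cells with 5 or more. By share of cells the intervals of adjacent cDC2 classes overlapped. They were 5.63 to 8.29% in CD301blo, 5.63 to 7.98% in CD301bint and 4.21 to 5.83% in CD301bhi cells.

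The Dll4 promoter is shown for the same reason (chr2:119325534-119325833, plus strand, RefSeq, GRCm38.p6), with the 1 match to the NF-κB consensus in capitals.
Dll4: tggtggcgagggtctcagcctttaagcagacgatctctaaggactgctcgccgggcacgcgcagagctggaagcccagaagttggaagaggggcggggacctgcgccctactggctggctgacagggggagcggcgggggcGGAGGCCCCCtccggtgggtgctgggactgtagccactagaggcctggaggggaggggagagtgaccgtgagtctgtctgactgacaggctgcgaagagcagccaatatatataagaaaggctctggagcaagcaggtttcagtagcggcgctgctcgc
The match begins 109 bases before the start, and 8.46% of 32851 promoters of this length held such a match on either strand, so it describes the letters and no binding.

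Dll1 and Jag2, the other Delta-like and Jagged ligands, were near the limit of counting. Dll1 (chr17:15367354-15376932) gave 41 UMIs in the 3042 naive cells with a class and 5 UMIs in the 7306 papain cells. By class the naive UMIs were 8 in LCs, 8 in cDC1s, 24 in CD301blo, 0 in CD301bint and 1 in CD301bhi cDC2s. The 0 of 659 CD301bint cells allows a share of cells with a detected UMI of up to 0.455%, which does not limit the share that express the gene. In naive CD301blo cDC2s 23 of the 24 Dll1 UMIs lay in cells that also held a T or B cell UMI, and without such cells the level was 0.181 CPM instead of 2.60. A similar concentration was seen in the mRNA clusters that the authors made of the naive cDC2s, where 80.0% of the Dll1 UMIs of the cDC2s lay in cluster 7, which had 2.47% of the cells. Among the naive clusters, cluster 7 also had the highest Notch1, Hes1 and Jag2, with 34.5, 20.8 and 12.9% of their cDC2 UMIs. The part of other cell types in the Dll1 signal was not tested.

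Jag2 (chr12:112907803-112929812) was between 0.455 and 3.58 CPM in the 10 groups. It was highest in cDC1s of both libraries, at 2.53 CPM (24 UMIs) in naive and 3.58 CPM (11 UMIs) in papain cells, 2.53-fold (log2 interval 0.50 to 2.15) and 4.68-fold (1.16 to 3.15) above the cDC2s of the same library. CD301blo cDC2s held more Jag2 than CD301bhi cDC2s, at 1.63 against 0.525 CPM in naive and 1.94 against 0.455 CPM in papain cells. In naive CD301blo cDC2s 12 of the 15 Jag2 UMIs lay in cells with a T or B cell UMI, and without such cells the naive levels were 0.543 and 0.429 CPM and the log2 ratio of CD301bhi over CD301blo went from -1.63 to -0.34. In the papain against naive comparison all 5 Jag2 intervals held 0. These levels were below the 10 CPM needed for a call.

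Of the receptors, Notch2 was detected in every class and Notch1 at no more than 1.19 CPM. Notch2 (chr3:98013538-98150367), the receptor that splenic and intestinal cDC2s depend on, ranged from 40.6 CPM in naive cDC1s to 65.9 CPM in naive CD301blo cDC2s, and from 37.5 CPM in papain LCs to 56.6 CPM in papain CD301blo cDC2s. It was lower in the papain library in LCs (log2 ratio -0.36, interval -0.56 to -0.14) and slightly lower in CD301blo (-0.22), CD301bint (-0.19) and CD301bhi cDC2s (-0.14). In cDC1s it was higher, from 40.6 to 56.3 CPM (0.47, 0.21 to 0.74). None of these reached 1.5-fold. Between the naive classes Notch2 was 1.502-fold lower in cDC1s than in cDC2s (40.6 against 60.9 CPM, log2 ratio -0.59, -0.75 to -0.43), at the edge of the size rule, while in papain cells the levels were 56.3 and 53.0 CPM.

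Notch1 (chr2:26457902-26503822) gave 39 UMIs in naive and 33 UMIs in papain cells with a class, in which all 10 groups stayed far below the 10 CPM of the size rule. No UMI was found in the 440 naive LCs, which allows a share of cells with a detected UMI of up to 0.682%, and in the other naive classes 0.910 to 1.73% of cells held one. Droplets without a class but with T cell transcripts held 13.8 CPM (naive) and 8.02 CPM (papain), and 11.8% and 6.22% of them held Notch1. In naive cDC1s 9 of the 10 Notch1 UMIs lay in cells that also held a T or B cell UMI. The shares in all DC classes lay below those of the droplets with T cell transcripts, and the source of the signal was not tested.

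**Figure D3:**
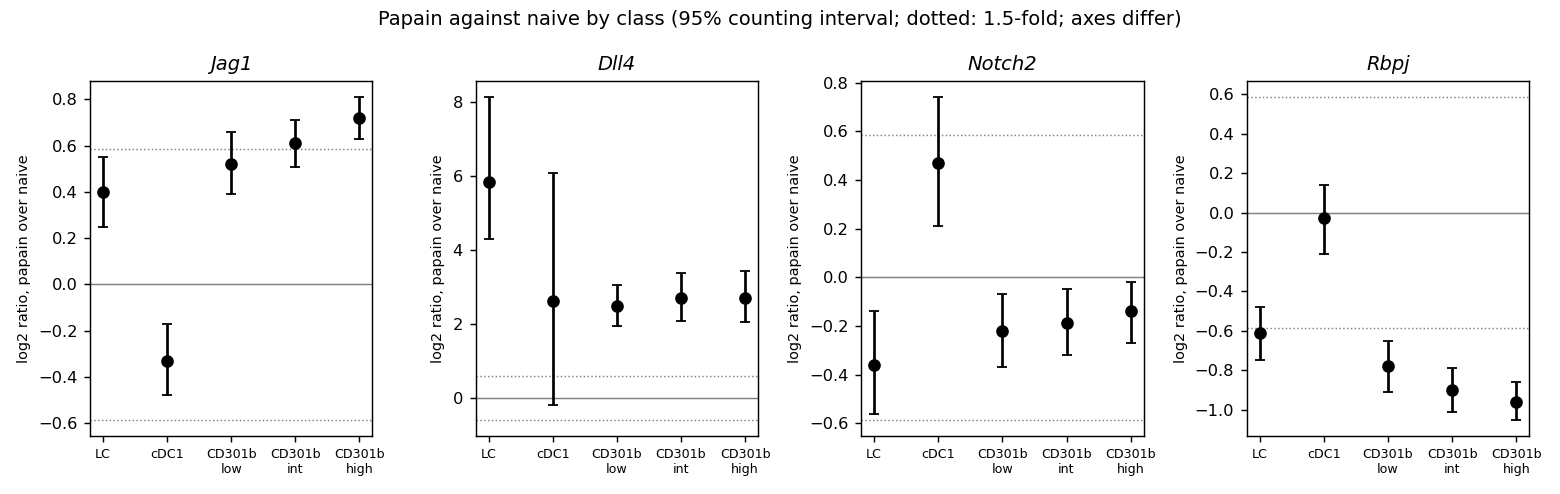
Log2 ratio of papain over naive for Jag1, Dll4, Notch2 and Rbpj in the 5 classes (points, vertical axes differ), with exact 95% counting intervals and dotted lines at 1.5-fold; 1 library per condition. Jag1 and Notch2 in cDC1s lay on the other side of 0 from the remaining classes, and Rbpj in cDC1s was at -0.03.

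Rbpj, the factor through which every Notch receptor acts on DNA, was lower in the papain library in LCs and all cDC2s and about the same in cDC1s. Rbpj (chr5:53555779-53657445) stood at 122 CPM in naive LCs, 117 in cDC1s, 96.3 in CD301blo, 105 in CD301bint and 110.4 in CD301bhi cDC2s. In the papain library the levels were 79.5, 114, 56.1, 56.4 and 56.9 CPM. The 3 papain cDC2 classes thus had overlapping intervals, at a lower level than any naive class. The log2 ratio was -0.61 in LCs (interval -0.75 to -0.48), -0.78 in CD301blo (-0.91 to -0.65), -0.90 in CD301bint (-1.01 to -0.79) and -0.96 in CD301bhi cDC2s (-1.05 to -0.86), or 1.53- to 1.94-fold lower. In cDC1s it was -0.03 (-0.21 to 0.14).

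Summed markers of other cells also differed between the libraries in some classes. The summed macrophage and monocyte markers stood at 89.3 CPM in naive and 24.9 in papain CD301blo, 78.2 and 13.6 in CD301bint, and 37.0 and 16.3 in CD301bhi cDC2s, with none of the 5 at 0. The summed T cell markers stood at 146 CPM in naive and 20.5 in papain cDC1s. In LCs the macrophage and monocyte sum was 62.3 CPM in naive and 58.3 in papain cells. The T cell sum in LCs was 11.3 and 11.6 CPM, and the B cell sum 29.9 and 8.61 CPM. Without cells holding a T or B cell UMI the Rbpj log2 ratio was -0.68 in LCs, -0.14 in cDC1s and -1.0, -0.95 and -0.91 in CD301blo, CD301bint and CD301bhi cDC2s. Without cells holding 2 or more C1q UMIs it was -0.63, -0.03, -0.80, -0.88 and -0.95 in the same order.

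The share of cells showed the same for the cDC2s: 69.2% of naive and 52.5% of papain CD301bhi cDC2s held Rbpj, or 52.0% and 33.8% after thinning. In LCs the shares as found were 68.6% and 69.5%, and those at 1 depth were 58.6% and 46.0%, so the shares in LCs differed after thinning and not as found. Rbpj in the papain library was 2.02-fold higher in cDC1s than in cDC2s (114 against 56.6 CPM, log2 ratio 1.01, 0.85 to 1.17), while in the naive library the levels were 117 and 105 CPM (0.16, 0.06 to 0.26).

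The first of 2 Rbpj promoters in the table is shown because it holds the RBPJ core itself (chr5:53590096-53590395, plus strand, RefSeq, GRCm38.p6), with the matches to TGGGAA, or TTCCCA on the other strand, in capitals.
Rbpj: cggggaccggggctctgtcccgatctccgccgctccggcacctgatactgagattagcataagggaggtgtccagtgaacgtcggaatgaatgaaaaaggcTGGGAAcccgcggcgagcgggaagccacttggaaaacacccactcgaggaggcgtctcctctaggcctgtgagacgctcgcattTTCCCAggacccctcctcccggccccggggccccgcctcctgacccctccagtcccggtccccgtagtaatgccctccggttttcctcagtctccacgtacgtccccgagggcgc
The 2 matches begin 149 and 65 bases before the start of this entry, and 25.6% of all 32851 promoters held at least 1. Both Rbpj entries, the second at chr5:53590236-53590535, lie inside the gene span of chr5:53555779-53657445. Neither sits at the first base of that span. Promoters of 7 of the 8 genes were in the table, and Hes1 was not among them.

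Hes1 (chr16:30065357-30067796), a repressor gene that Notch turns on in many cells, was low in all classes. Its level was 0.753 CPM in naive LCs, 3.79 in cDC1s, 6.83 in CD301blo, 3.10 in CD301bint and 2.19 in CD301bhi cDC2s, and from 0.817 to 2.60 CPM in the papain classes. It was lower in papain than in naive CD301blo (log2 ratio -2.04, interval -2.72 to -1.39) and CD301bint cDC2s (-0.86, -1.53 to -0.18), and in the other 3 classes the interval held 0. The 32 UMIs of naive CD301bint cDC2s came from 16 cells, 2 of which held 34.4%, and 13 UMIs lay in cells with a T or B cell UMI. The shares of CD301bint cells with Hes1 had overlapping intervals, 1.39 to 3.91% in naive and 1.20 to 2.46% in papain cells. The 63 UMIs of naive CD301blo cDC2s came from 18 cells, and 36 of them lay in cells that held a T or B cell UMI. In papain CD301blo cDC2s 18 of 30 Hes1 UMIs lay in such cells and 12 in 6 cells with 2 or more C1q UMIs, and the level without them was 0.857 and 1.00 CPM instead of 1.66. The log2 ratio was -2.51 without the former cells of both libraries and -2.55 without the latter. Of the other target genes on the list, Hey1, Hey2, Nrarp, Dtx1 and Myc stayed under 10 CPM in all 10 groups. Hes5 and Heyl were not listed in the tables, like the ligand Dll3.

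A gene was called when it differed by 1.5-fold or more and reached 10 CPM in the higher of the groups, and it was tested for this when it reached 10 CPM in either. In LCs 1 of 4 members tested was higher in the papain library (Dll4) and 1 lower (Rbpj), beside 14.4% and 9.21% of 7582 genes (23.6% in all). In cDC1s 0 of 3 were called, beside 10.3% of genes higher and 12.6% lower (22.9%). In CD301blo cDC2s 1 of 4 was higher (Dll4) and 1 lower (Rbpj), beside 11.0% and 14.2% (25.2%). In CD301bint cDC2s 2 of 4 were higher (Jag1, Dll4) and 1 lower (Rbpj), beside 10.7% and 10.5% (21.3%), and the same counts in CD301bhi cDC2s stood beside 10.2% and 8.39% (18.6%). With 3 or 4 members tested per class nothing is read from these shares.

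Between classes of the naive library, 0 of 3 members were called for LCs against cDC2s (all genes 11.6% higher, 13.8% lower, 25.3% in all). For cDC1s against cDC2s 1 of 3 was higher (Jag1) and 1 lower (Notch2), beside 11.9% and 17.2% (29.1%). For CD301bhi against CD301blo cells 1 of 3 was higher (Jag1), beside 5.02% higher and 9.53% lower (14.5%). In the papain library 1 of 4 was higher in LCs than in cDC2s (Dll4; all genes 6.8% higher, 6.02% lower, 12.8% in all). There 1 of 4 was higher (Rbpj) and 1 lower (Dll4) in cDC1s than in cDC2s, beside 9.66% and 16.7% (26.4%), and 1 of 4 higher (Jag1) and 1 lower (Dll4) in CD301bhi than in CD301blo cells, beside 4.28% and 3.99% (8.27%).

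The 56 other pathway genes that were listed, from ligand endocytosis to corepressors, were called about as often as all genes, in 22.2% of those tested in LCs, 27.0% in cDC1s, 27.0% in CD301blo, 21.1% in CD301bint and 19.4% in CD301bhi cDC2s. Their median log2 ratio was between -0.09 and -0.01 in the 5 classes, against 0.01 to 0.09 for all genes tested. Of the 35 tested in all 5 classes, 1 was higher in all 5 (2.86%) and 1 lower in all 5 (2.86%), beside 1.9% and 2.33% of the 6483 genes tested in all 5. The first was Dtx3l, of the Deltex ubiquitin ligase family, with log2 ratios of 0.71 in LCs, 0.85 in cDC1s and 1.09, 1.10 and 1.17 in CD301blo, CD301bint and CD301bhi cDC2s. The second was Neurl3, of the Neuralized family, at -1.67, -1.90, -1.89, -1.25 and -0.80 in the same order.

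Of the same 35 genes 1 was higher (2.86%) and 3 were lower (8.57%) in 4 of the 5 classes, beside 3.39% and 2.05% of all genes tested in all 5. Furin, the protease that cuts the Notch precursor, was lower in cDC1s (65.7 to 30.6 CPM) and in the cDC2s (44.9 to 50.6 CPM naive, 26.4 to 29.2 CPM papain). Nedd4, a ubiquitin ligase that acts on Notch, was lower in the same classes, with log2 ratios of -1.26 in cDC1s and -1.75 to -1.90 in cDC2s, and at -0.04 in LCs. Tle3, a Groucho corepressor, was lower in LCs (-0.62) and cDC2s (-1.23 to -1.42). Esam, a surface gene of Notch2-dependent splenic cDC2s, was higher in LCs (0.64) and cDC2s (0.76 to 1.31). Of the 11 corepressors on the list, 10 were tested in each class of LCs and cDC2s and 1 or 2 were lower there, Tle3 and Tle4, beside 8.39 to 14.2% of all genes, a share from which nothing is read. Poglut1, a glycosyltransferase of Notch, was higher in LCs (log2 ratio 0.59) and CD301blo cDC2s (0.65). Cd4, which T cells also express, was at 20.7 CPM in naive and 0.609 CPM in papain CD301blo cDC2s, beside summed T cell markers of 43.7 and 12.2 CPM, and its source was not tested.

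**Figure D4:**
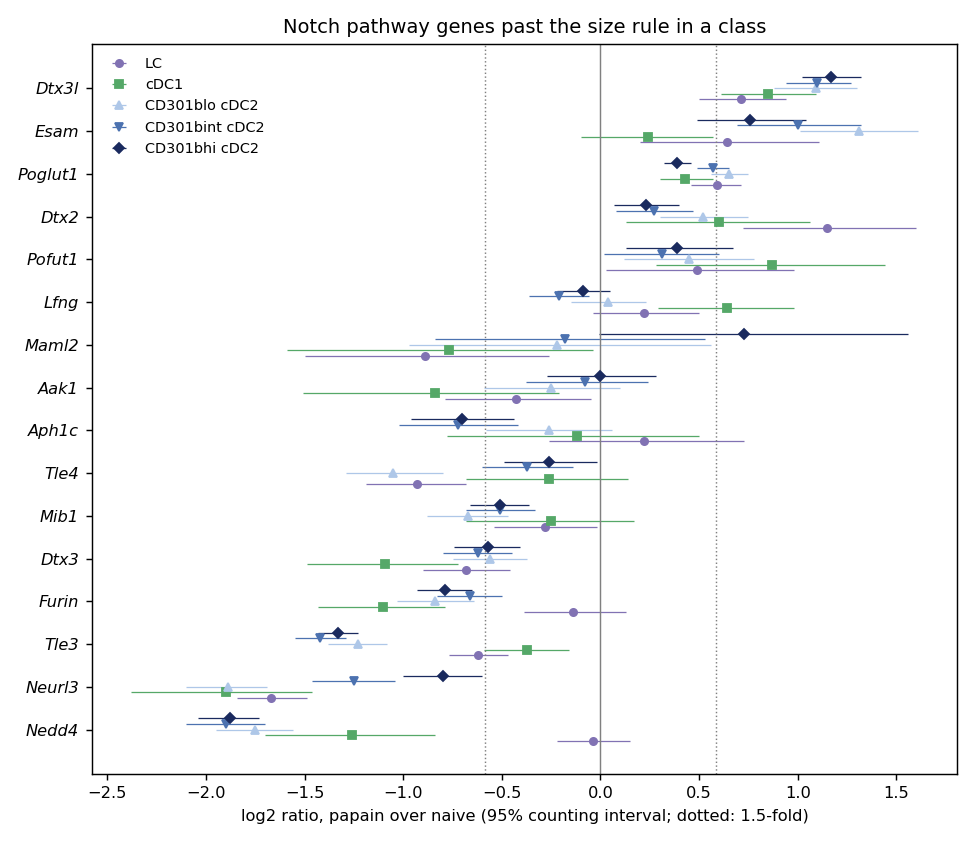
Log2 ratio of papain over naive (horizontal axis) of the pathway genes other than the members that were called in at least 1 class, each class with its own symbol, exact 95% counting intervals and dotted lines at 1.5-fold; Cd4, at -5.09 in CD301blo cDC2s, is off the scale and left out. Dtx3l lay above and Neurl3 below 1.5-fold in all 5 classes, while Nedd4 lay at -0.04 in LCs.

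The other receptor that passed 10 CPM, Notch3, lay between 6.95 CPM in naive cDC1s and 19.4 CPM in naive LCs, and was not called between papain and naive in any class. In the naive library it was 2.24-fold lower in cDC1s than in cDC2s. In the same comparison Lfng, a Fringe glycosyltransferase that tunes receptors, was 2.06-fold lower, the receptor-cutting protease Adam17 2.55-fold lower and the ubiquitin ligase Dtx2 2.22-fold lower, while the coactivator Maml2 was 4.49-fold and Numb, an endocytic regulator, 2.07-fold higher. The Adam17 difference was also called in the papain library (27.0 against 49.0 CPM).

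The clusters that the authors made of the cDC2s from their mRNA, 7 naive and 9 papain ones with separate numbering, give a finer view of the members, as a description only since the clusters were built from expression. In both libraries the cluster numbered 2 held the highest Jag1, at 201 CPM among naive and 253 CPM among papain cells, against 25.0 and 41.1 CPM in the lowest clusters. Rbpj in these clusters was the second lowest of its library, at 69.2 and 33.3 CPM. Their intervals overlapped that of the lowest, cluster 7 in each library. The highest Rbpj levels were 176 CPM in naive cluster 6, on 58 UMIs in 55 cells, and 108 CPM in papain cluster 9. Each of these had an interval that overlapped that of the next highest cluster. The clusters numbered 2 were rich in CD301bhi cells (47.7% and 67.2%), as was naive cluster 1 (53.4%), in which Jag1 stood at 84.7 and Rbpj at 111 CPM. Dll4 in the papain library was found in all 9 clusters, from 2.96 to 23.6 CPM, with the highest level in cluster 8, which had 316 cells and a median of 7249 UMIs. By share of cells the order differed, with 4.11% in cluster 8 and the highest share, 12.7%, in cluster 5. The latter was also deeper, at a median of 30020 UMIs. In the naive library no Dll4 UMI was found in clusters 3, 4, 6 and 7.

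**Figure D5:**
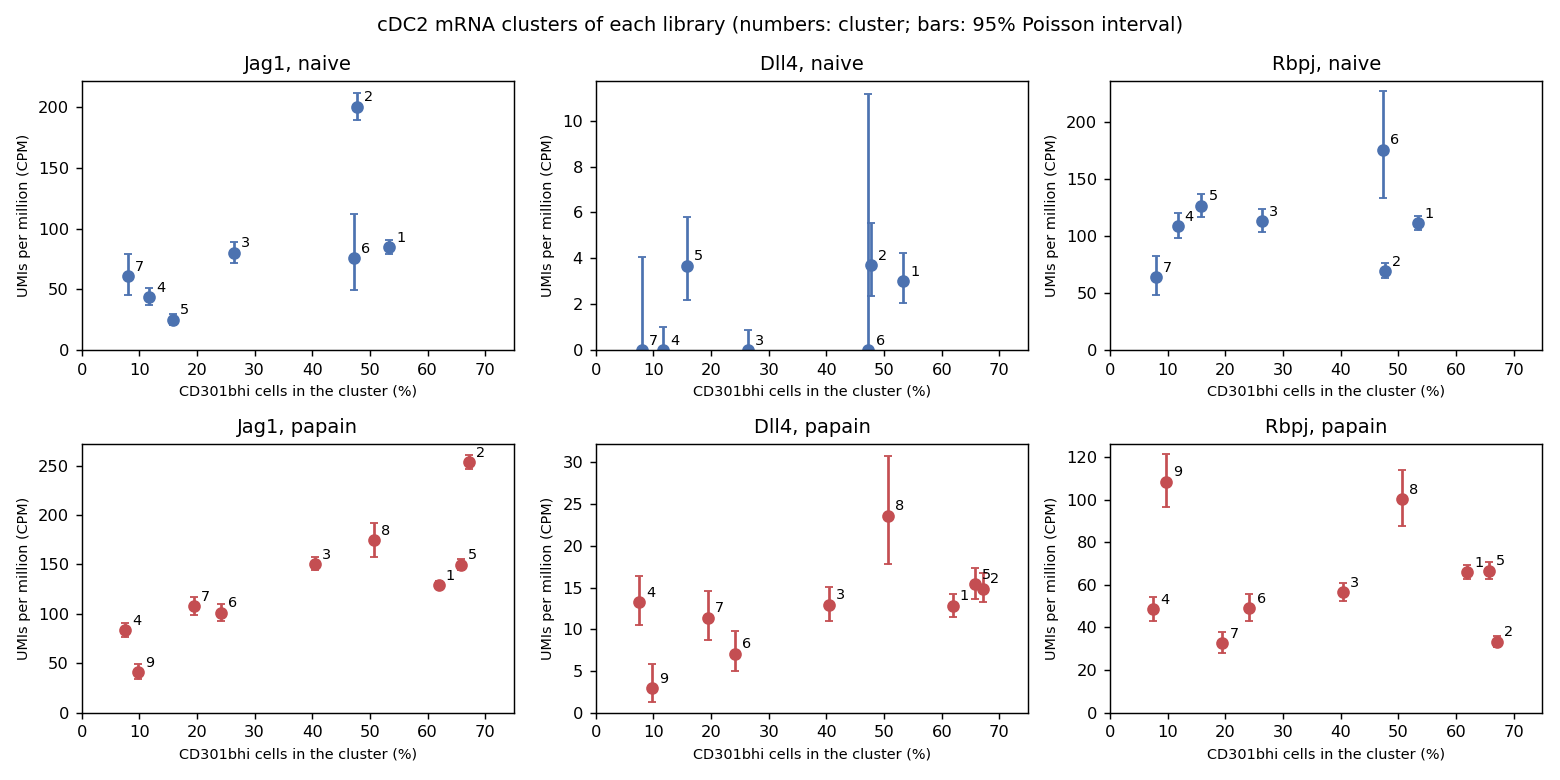
Level of Jag1, Dll4 and Rbpj (vertical axes, UMIs per 1000000, from 0) in each mRNA cluster of the cDC2s against the percent of its cells in the CD301bhi class, naive above and papain below; numbers name the clusters, lines are exact 95% Poisson intervals. Cluster 2 of each library had the highest Jag1, at 201 and 253 CPM, and Rbpj at 69.2 and 33.3 CPM.

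The genes most like each member across the 10 groups of class and library were sought among those with at least 50 CPM in a group, by Pearson's r of log2(CPM + 1). The 10 points come from 2 libraries and share those libraries' depth. Jag1 was most like Itm2c (r = 0.949), Plcl2 (0.945) and Brk1 (0.933), all highest in naive cDC1s. Notch2 was most like Ahcyl2 (0.913), Etv6 (0.897) and Runx1 (0.880), all highest in naive CD301blo cDC2s. Rbpj was most like Tle3 (0.959), Slc46a3 (0.914) and the unnamed transcript Gm26623 (0.913). Dll4 was most like Gm17494 (0.973), the ribosomal protein pseudogene Rpl35a-ps6 (0.968) and Atp2b4 (0.966), of which the second may share reads with its parent gene.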

How the data were processed

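The authors aligned the reads to mm10 with Cell Ranger 3.0.1 and worked in Partek, per the labels and submitters' processing notes. The deposited expression values are log2(CPM + 1) per cell, with the count of expressed genes per cell beside them, and the antibody values were deposited as a natural log, from which CD301b was taken. UMIs were recovered from the steps of the log2 values (100% whole within 0.02 UMIs, for values up to 50 UMIs) and summed by the authors' class. Levels carry exact Poisson, shares Clopper-Pearson and ratios conditional binomial 95% intervals, and a count of 0 was set to a floor of 3 counts. The 8 members and all lists were chosen with earlier results of these data known. Named genes were the members, called pathway genes, up to 4 per direction and comparison by fold, and the 3 genes most like each member. Every cell with a class entered, 3042 naive and 7306 papain, and no doublet caller was run. The scripts (Python 3.11.15, numpy 2.4.6, scipy 1.17.1, pandas 2.3.3) were tested on simulated data. RefSeq tables of GRCm38.p6, the assembly of mm10, gave coordinates and promoters. Alternatives were the mean of single-cell CPM, 1 CPM added, median-ratio scaling, other CPM minimums, 3 other choices of cells, CD301b tertiles and, for shares, thinning or 2 UMIs. The choice without cells holding 2 or more C1q UMIs was added after seeing the data. The marker lists gave no keratinocyte gene in the tables. Of the 5 stromal markers only 1, Ccl19, was listed, and of the 4 endothelial markers 3 were, without Cdh5. The summed endothelial and natural killer markers were at most 12.9 and 8.67 CPM in any class. Ccl19 was at most 19.2 CPM, and from this 1 gene nothing is read about stroma. The summed markers of plasmacytoid DCs, chiefly the widely expressed Bst2, were at 92.0 to 249.6 CPM.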

Additional observations from a re-analysis of the deposited data

Results flagged for a closer look

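Jag1 and Notch2 moved in opposite directions in cDC1s and in the other classes between the papain and naive libraries, and the difference between classes was not tested, each condition being 1 library. For Jag1 the log2 ratio was -0.33 in cDC1s against 0.40 in LCs, 0.52 in CD301blo, 0.61 in CD301bint and 0.72 in CD301bhi cDC2s. For Notch2 it was 0.47 in cDC1s against -0.36 in LCs, -0.22 in CD301blo, -0.19 in CD301bint and -0.14 in CD301bhi cDC2s. The counting intervals of the Jag1 ratios treat UMIs as independent and are too narrow. By share of cDC1s with Jag1 the intervals overlapped, at 55.9 to 64.1% in naive and 47.4 to 60.5% in papain cells. Notch1 was found outside the classes that were compared: the droplets without a class that held T cell transcripts stood at 13.8 CPM in the naive and 8.02 CPM in the papain library, above the interval of every DC class of the same library.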

How the results depend on the processing

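No paired analysis was possible because each condition was 1 library. No called log2 ratio changed sign under any alternative. Between papain and naive, Dll4 in LCs and in CD301blo and CD301bint cDC2s was called under every alternative other than the 50 CPM minimum, and Rbpj in LCs and all cDC2s under every one. The counts of members past the fold that moved by more than 1.5 times were these, and other counts moved by at most 1. With the mean of single-cell CPM or without the deepest 5% of cells, papain against naive cDC1s gave 1 (Notch2, 0.61 both times) and papain LCs against cDC2s 2 (Jag1 added, at -0.60 and -0.64). Naive cDC1s against cDC2s gave 1 with 1 CPM added, with median-ratio scaling and without C1q cells, since Notch2 was then at -0.58, -0.53 and -0.58. Naive CD301bhi against CD301blo cells gave 0 without cells holding a T or B cell UMI and with CD301b tertiles (Jag1 at 0.42 and 0.58). A minimum of 1 CPM gave 2 for papain cDC1s, 5 for CD301blo cDC2s, 4, 4 and 5 for the naive class comparisons and 3 for papain LCs against cDC2s. A minimum of 50 CPM gave 1 for papain LCs and CD301blo cDC2s, and 0, 1 and 1 for the papain class comparisons. Jag1 in CD301bint cDC2s lost its call in 4 alternatives (0.51 to 0.55), and Dll4 in CD301bhi cDC2s with the mean of single-cell CPM (1.98, under 10 CPM). Over all genes, calls numbered 2192 to 5441 with the 1 CPM minimum and 205 to 827 with that of 50 CPM, against 593 to 2188, and 707 instead of 1087 for naive CD301bhi against CD301blo cells without T or B cell UMIs. Median-ratio scaling shifted log2 ratios by -0.10 to 0.10 and moved the share of higher calls from 54.9 to 39.5% in CD301bhi cDC2s and from 36.6 to 47.7% for papain cDC1s against cDC2s. With thinning or the 2 UMI limit 111 shares moved and 49 did not. Jag2, Dll1, Notch1 and Hes1 stayed under 10 CPM in all classes, so the 10 CPM rule could not call them. The part of depth in their low detection was not tested.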
